A study of Mus musculus with 2 samples.

Results

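A set of 10 redox genes was examined in CD4+ T cells with and without Lamtor1, which encodes an adaptor that anchors the Ragulator complex to the lysosome surface, where amino acids activate mTORC1. The set holds the transcription factor gene Nfe2l2 (Nrf2) and its repressor Keap1, the glutathione genes Gclc, Gclm and Slc7a11, the thioredoxin genes Txn1, Txnrd1 and Srxn1, and the Nrf2 targets Nqo1 and Hmox1. They were chosen by name, with earlier results of these data known, and every probe that names one of them was read. The 10 genes, of 31709 named genes or transcripts on the array, had 11 probes. Of the 10 genes, 8 were measured, meaning that a probe stood well above background in KO RNA, in WT RNA or in both, each time on both arrays, as did 14879 genes of the whole array.

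One RNA came from Lamtor1-deficient mice (KO) and the other from wild-type mice (WT), both on the C57BL/6J background. CD4+CD62L+ T cells were taken from spleen and, per the labels, stimulated in both genotypes with plate-bound anti-CD3 and soluble anti-CD28 for 5 days, in medium with 1 ng/ml of human TGFβ (rhTGFβ) and 50 ng/ml of IL-2. The labels' extraction text speaks of naive cells, so whether the RNA was taken before or after culture is not settled by the sources used here. The age and number of mice, the deletion method and any promoter driving a recombinase are not given in the sources used here. The RNAs were hybridised together on 2 dual-colour Agilent arrays, with KO in Cy5 and WT in Cy3 on one and the dyes exchanged on the other. Both arrays carry the label of biological replicate 1, so they count as 1 replicate: the SD between them is technical, the spread between mice was not measured, and no test can be made.

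As background, Nrf2 is a basic leucine zipper factor that Keap1, the substrate adaptor of a Cul3 ubiquitin ligase, marks for degradation until oxidants or electrophiles modify Keap1. Stable Nrf2 pairs with small Maf proteins at antioxidant response elements, where Bach1 can repress. Its targets include the enzymes of glutathione synthesis and the thioredoxin system, both of which activated T cells use to keep protein thiols reduced while they grow. Cystine for glutathione enters through the xCT transporter, made of Slc7a11 and Slc3a2, whose genes are also targets of the amino acid starvation factor Atf4. Nrf2 is regulated largely through its protein, which arrays do not measure.

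The 4 upstream windows printed below are a choice among those that hold letters of the elements that Nrf2 and Atf4 are known to bind. Those of Nfe2l2 and Keap1, which also hold such letters, are not printed. Each window is the 250 bases before a RefSeq gene start in GRCm38.p6, and such windows were found for 8 of the 10 genes (10 windows, since Txnrd1 has 3), with none for Gclc and Hmox1. The core of the antioxidant response element, TGACNNNGC, was searched on both strands, and a match is a description of letters, not a site. It occurred in 3 of the 8 genes (Gclm, Nfe2l2 and Txnrd1), against 11.5% of all 27025 genes with such a window. In Gclm the match was TGACGGTGC on the opposite strand, 134 to 126 bases before the start. In Txnrd1 it was TGACAAAGC on the opposite strand, 92 to 84 bases before the second start, and it was the only one of the 3 followed by the A that completes the longer element, which 2.8% of all genes held. In Nfe2l2 it was TGACTCCGC, 240 to 232 bases before the start. The looser core TGANNNNGC, which contains the first and was added after the sequences had been read, occurred in 6 of the 8 genes and in 38.7% of all genes. Srxn1, which had no match to the first core, held 3 of these, among them TGAGTCAGC at 45 to 37 bases before the start. The C/EBP-ATF element TGATGNAA occurred in Slc7a11 alone of the 8 genes, against 3.91% of all genes: TGATGCAA stood at 66 to 59 bases before the start and again, on the opposite strand, at 47 to 40. The windows follow with build and strand, read 5′ to 3′ on the gene's strand. Capitals mark either core in the first 3 (with the final A in Txnrd1) and the C/EBP-ATF element in Slc7a11, whose looser-core matches, 1 of which overlaps that element, are left in lower case.
Gclm, chr3:122245307-122245556, plus strand: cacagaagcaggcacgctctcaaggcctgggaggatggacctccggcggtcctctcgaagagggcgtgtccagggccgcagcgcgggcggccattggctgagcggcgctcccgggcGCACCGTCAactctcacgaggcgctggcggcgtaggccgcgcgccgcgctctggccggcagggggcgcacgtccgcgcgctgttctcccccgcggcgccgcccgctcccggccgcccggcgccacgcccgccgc
Txnrd1, second start, chr10:82858956-82859205, plus strand: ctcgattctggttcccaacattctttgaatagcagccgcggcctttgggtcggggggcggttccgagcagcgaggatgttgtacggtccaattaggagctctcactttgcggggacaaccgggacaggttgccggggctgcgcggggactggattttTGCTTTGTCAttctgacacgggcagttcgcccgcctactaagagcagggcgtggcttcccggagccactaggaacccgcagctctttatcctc
Srxn1, chr2:152105274-152105523, plus strand: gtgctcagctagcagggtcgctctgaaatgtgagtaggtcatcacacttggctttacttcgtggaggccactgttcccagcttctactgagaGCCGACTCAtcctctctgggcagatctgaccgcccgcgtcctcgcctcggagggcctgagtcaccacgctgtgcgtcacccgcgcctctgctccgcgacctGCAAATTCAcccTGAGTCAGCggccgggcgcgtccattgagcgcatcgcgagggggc
Slc7a11, chr3:50443614-50443863, minus strand: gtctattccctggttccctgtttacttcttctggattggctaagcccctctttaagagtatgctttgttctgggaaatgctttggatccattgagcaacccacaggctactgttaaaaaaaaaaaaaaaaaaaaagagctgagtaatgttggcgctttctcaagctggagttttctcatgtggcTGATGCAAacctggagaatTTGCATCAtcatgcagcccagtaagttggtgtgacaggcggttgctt

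Lamtor1 checks the labels. Its probe (chr7:109060334-109060393, mm9) gave signals of 270.0 and 281.2 in KO, against 1054 and 1071 in WT, and its log2 ratio of KO over WT was -1.95 ± 0.03 (technical SD, 2 arrays), or 3.86-fold lower in KO. The sources used here do not say whether the probe lies in the deleted part of the gene. Probe positions are those of the file headers' build, mm9. Here and below a pair of values gives the array with KO in Cy5 first and the one with KO in Cy3 second. Signals are normalised intensities in arbitrary units that include an added offset of 50, so they compare RNAs on 1 probe and not probes with each other. Each array had 44397 spots, of which 1377 were controls, and the rest held 39429 probes. The median scanner intensity of a spot was 70.5 and 68.5 in KO and 71.4 and 76.4 in WT. These medians precede background correction, offset and normalisation, so they are not on the scale of the signals. The median SD of a measured gene between the arrays was 0.11 on the log2 scale. A gene was called when both arrays put it 2-fold or more to the same side: 366 of the 14879 measured genes were called higher in KO (2.46%) and 1024 lower (6.88%). The median log2 ratio of all measured genes was -0.02.

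Markers of other cells differed between the RNAs. Of 6 CD8 and NK cell markers, 5 were measured and their list's summed signal was 1797 and 1660 in KO, against 716.4 and 714.6 in WT, with Klrb1c, Klrd1 and Tyrobp called higher in KO and Ncr1 not measured. Cd8a and Cd8b1, of the same list, had log2 ratios of 0.67 and -0.55, neither called. With both RNAs required above background on both arrays, 3 of the 5 stayed and 1 was called higher. The other called markers of this list had passed the filter through KO alone. Of 7 myeloid markers, 4 were measured, with a sum of 10151 and 8965 in KO against 5892 and 5623 in WT, most of it from 1 bright probe of Itgam whose other probes were dim, while Cd68, Adgre1 and Cd14 were not measured and S100a8 was called higher in KO. With both RNAs required above background, 2 of the 4 stayed and none was called higher, S100a8 having passed through KO alone. The 6 T cell markers on the array were all measured and summed to 46144 and 45366 in KO, against 58203 and 56251 in WT, with Cd4 (-1.18 ± 0.05) and Cd5 (-1.12 ± 0.12) called lower in KO. A dimmer Cd4 probe gave -0.805 ± 0.01, short of 2-fold, and with the median over probes 1 T cell marker was called lower. Cd3e (0.09 ± 0.01) and Lck (0.16 ± 0.06) lay above 0 on both arrays. Of 4 B cell markers 1 was measured, with list sums of 209.0 and 191.0 in KO and 139.7 and 121.4 in WT. Of 5 erythroid markers 1 was measured, through WT alone, with list sums of 79.6 and 96.5 in KO and 216.2 and 217.6 in WT. In bulk RNA, a change in the share of cells of a type and a change in RNA per cell cannot be told apart, and the part of these differences in any ratio below was not tested.

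None of the 8 measured redox genes was called in either direction, against 2.46% of all measured genes called higher and 6.88% called lower. Of the 8, 6 (Gclc, Txnrd1, Nfe2l2, Gclm, Srxn1 and Hmox1) had a ratio above 0 on both arrays, and Keap1 and Txn1 had one below 0 on both. Of all measured genes, 38.63% lay above 0 on both arrays and 44.34% below 0 on both. The log2 ratios of the 8 genes ran from -0.56 to 0.91 with a median of 0.22, beside -0.02 for all measured genes. Srxn1 passed the filter through KO alone. With both RNAs required above background on both arrays, 7 of the 10 genes stayed, 5 above 0 and 2 below, with a median of 0.22. Under a looser rule of 1.5-fold on both arrays, Gclc and Txnrd1 were called higher, where 6.78% of all measured genes were, and none was called lower, where 13.5% were. The technical SD of the 8 genes ran from 0.02 to 0.28. The plot of the ratios shows each gene on each array.

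**Figure D1:**
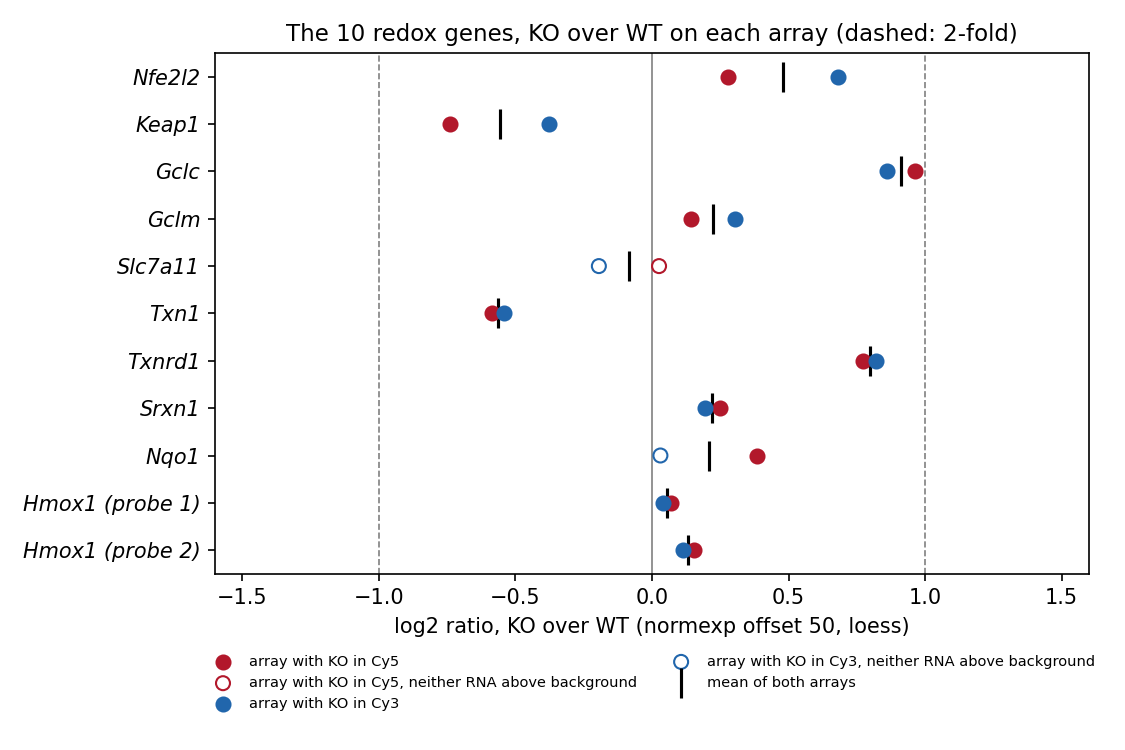
Log2 ratio of KO over WT (x axis) for each of the 11 probes of the 10 redox genes (y axis), with a point for each of the 2 arrays and dashed lines at 2-fold. No gene passes 2-fold on both arrays, Gclc and Txnrd1 lie nearest to it on the higher side, and Keap1 and Txn1 lie below 0 on both arrays.

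The regulator genes Nfe2l2 and Keap1 had ratios of opposite sign. Nfe2l2, which encodes Nrf2, had signals of 969.7 and 1315 in KO, against 798.8 and 819.7 in WT, at its probe on chr2:75513771-75513830 (mm9). KO lay above WT on each array, as it did for 38.63% of all measured genes. The log2 ratios were 0.28 and 0.68, a mean of 0.48 ± 0.28 (technical SD) or 1.40-fold higher, which was not called. This is the largest SD among the 8 measured genes, and the mean was -0.04 when each array was centred on its median in place of loess. Keap1, the adaptor that holds Nrf2 down, had signals of 601.8 and 606.5 in KO, against 1005 and 787.0 in WT, at a probe placed on chr9:21035292-21035732. KO lay below WT on each array, as it did for 44.34% of all measured genes. The log2 ratios were -0.74 and -0.38, a mean of -0.56 ± 0.26 or 1.47-fold lower, and 12367 of the 14879 measured genes had a higher ratio.

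Gclc had the highest ratio of the 8 measured genes, although Srxn1 (1.09) exceeded it (1.07) with the processed signals. It encodes the catalytic subunit of glutamate-cysteine ligase, the rate-limiting enzyme of glutathione synthesis. Its probe (chr9:77641296-77641355, mm9) gave 1280 and 1340 in KO, against 657.2 and 738.2 in WT, so the KO RNA lay above the WT RNA on each array. The log2 ratios were 0.96 and 0.86, a mean of 0.91 ± 0.07 or 1.88-fold higher, just short of the 2-fold rule, and 523 of the 14879 measured genes had a higher ratio. With the software's own processed signals the mean was 1.07 and Gclc was called higher, where 5.83% of all measured genes were. With median centring it was 0.39, or 0.77 relative to the median of all genes, which that centring moved to -0.37.

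Gclm and Slc7a11 gave less. Gclm encodes the modifier subunit that raises the affinity of the ligase for glutamate, and its window above holds an element core. Its probe, placed across an interval of chr3:121962174-121964809, gave 152.9 and 161.1 in KO, against 138.5 and 130.4 in WT. On each array KO lay above WT by a small margin. The log2 ratios were 0.14 and 0.30, a mean of 0.22 ± 0.11 or 1.17-fold higher. Slc7a11, the cystine-carrying chain of xCT, was not well above background in either RNA on either array at its single probe (chr3:50169700-50169759), so it has no fold. Its signals were 64.8 and 70.6 in KO and 63.7 and 80.8 in WT, which lie near the offset of 50. The window with 2 C/EBP-ATF matches belongs to a gene that these arrays did not measure.

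Txn1 and its reductase gene Txnrd1 had ratios of opposite sign, and neither was called. Txn1 encodes the cytosolic thioredoxin that reduces protein disulphides. Its probe (chr4:57956677-57956736) gave 4480 and 4699 in KO, against 6716 and 6835 in WT. The log2 ratios of -0.58 and -0.54 had a mean of -0.56 ± 0.03, or 1.48-fold lower. Txnrd1 encodes the selenoenzyme that reduces thioredoxin with NADPH. Its probe (chr10:82360230-82360289) gave 1590 and 1841 in KO, against 930.6 and 1041 in WT. The log2 ratios of 0.77 and 0.82 had a mean of 0.80 ± 0.03, or 1.74-fold higher, and 689 of the measured genes had a higher ratio. On each array KO lay below WT for Txn1 and above it for Txnrd1, as for 44.34% and 38.63% of all measured genes.

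Of the 8 measured genes, Srxn1 had the widest range over the alternatives tried, 0.19 to 1.09 on the log2 scale. It encodes sulfiredoxin, which restores over-oxidised peroxiredoxins. Its probe (chr2:151937009-151937068) gave 109.9 and 92.0 in KO, against 92.6 and 80.5 in WT, and it was not well above background in WT on the array with WT in Cy5. Srxn1 therefore counted as measured through KO alone, where it was higher. The KO signal on one array and the WT signal on the other overlapped, although within each array KO was higher. The log2 ratios were 0.25 and 0.19, a mean of 0.22 ± 0.04. With the software's processed signals, which add no offset, they were 1.07 and 1.11, and Srxn1 was then called higher with Gclc.

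The stress genes Nqo1 and Hmox1 are classic readouts of Nrf2. Nqo1, a quinone reductase, was well above background only in KO on 1 array, and so was not measured: its probe (chr8:109912440-109912499) gave 85.1 and 73.3 in KO, against 65.2 and 71.8 in WT. It therefore has no fold. Hmox1, the inducible haem oxygenase that Bach1 also represses, had 2 probes. The brighter (chr8:77624207-77624266) gave 222.1 and 214.3 in KO, against 211.5 and 208.6 in WT, a log2 ratio of 0.05 ± 0.02. The dimmer (chr8:77620797-77620856) gave 95.01 and 94.3 in KO, against 85.5 and 87.1 in WT, and was above background on 1 array in each RNA, so it was not measured. At both Hmox1 probes KO lay slightly above WT on both arrays.

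**Figure D2:**
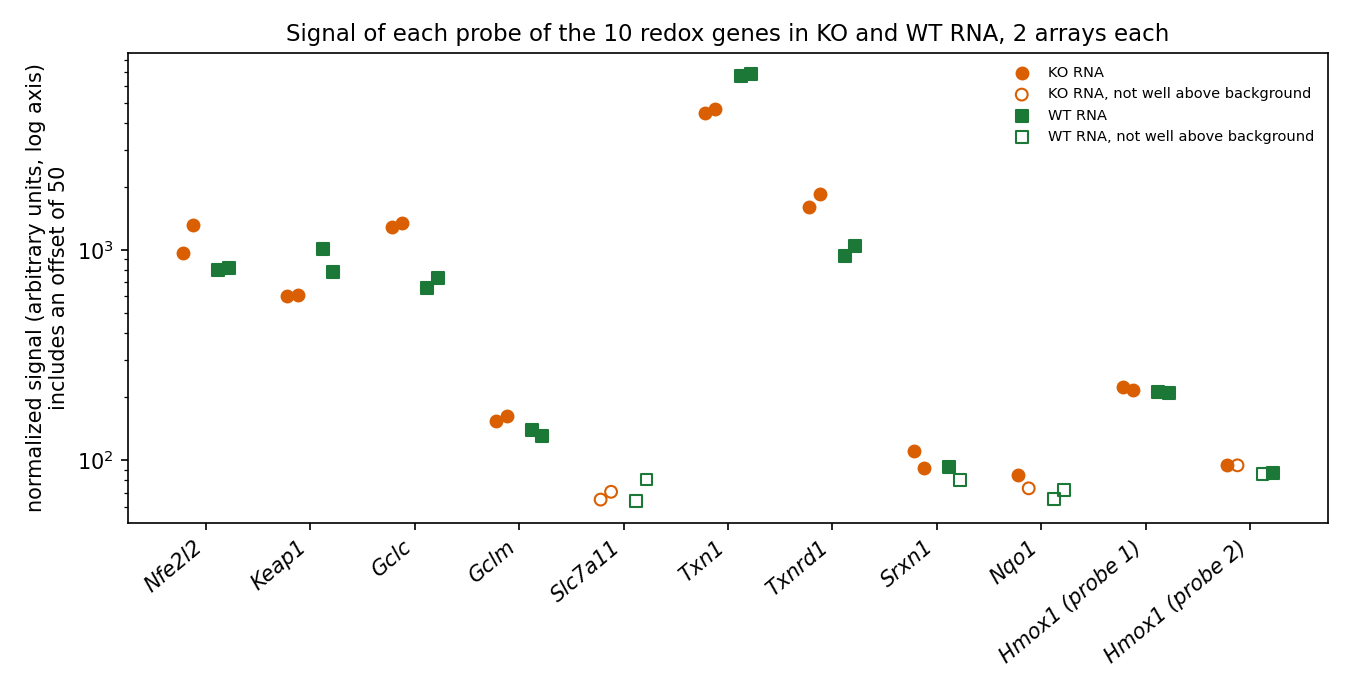
Normalised signal in arbitrary units on a log axis (y axis) for each probe of the 10 redox genes (x axis), with KO left of WT and 1 point per array, and open points where the spot was not well above background. KO lies above WT on both arrays for Gclc, Txnrd1 and Nfe2l2 and below it for Keap1 and Txn1, and Slc7a11 and Nqo1 lie among the dim probes.

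The normalisation moved the ratios of all 8 genes. With median centring, the median of all genes itself moved to -0.37, and 4 of the 8 genes lay above 0 and 4 below, Nfe2l2 and Hmox1 having changed side. Relative to that median, Gclc stood at 0.77, Srxn1 at 0.65, Txnrd1 at 0.62, Gclm at 0.45, Nfe2l2 at 0.33 and Hmox1 at 0.18, while Keap1 stood at -0.66 and Txn1 at -0.80. So relative to all genes the same 6 were above and the same pair below. Keap1 and Txn1 then passed -1 in the mean (-1.04 and -1.17), but not on both arrays, and neither was called. The arrays then lay far apart, with Gclc at 1.14 and -0.35 and Txnrd1 at 0.95 and -0.45, so both had opposite signs on the 2 arrays. The plot of settings gives the means side by side.

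**Figure D3:**
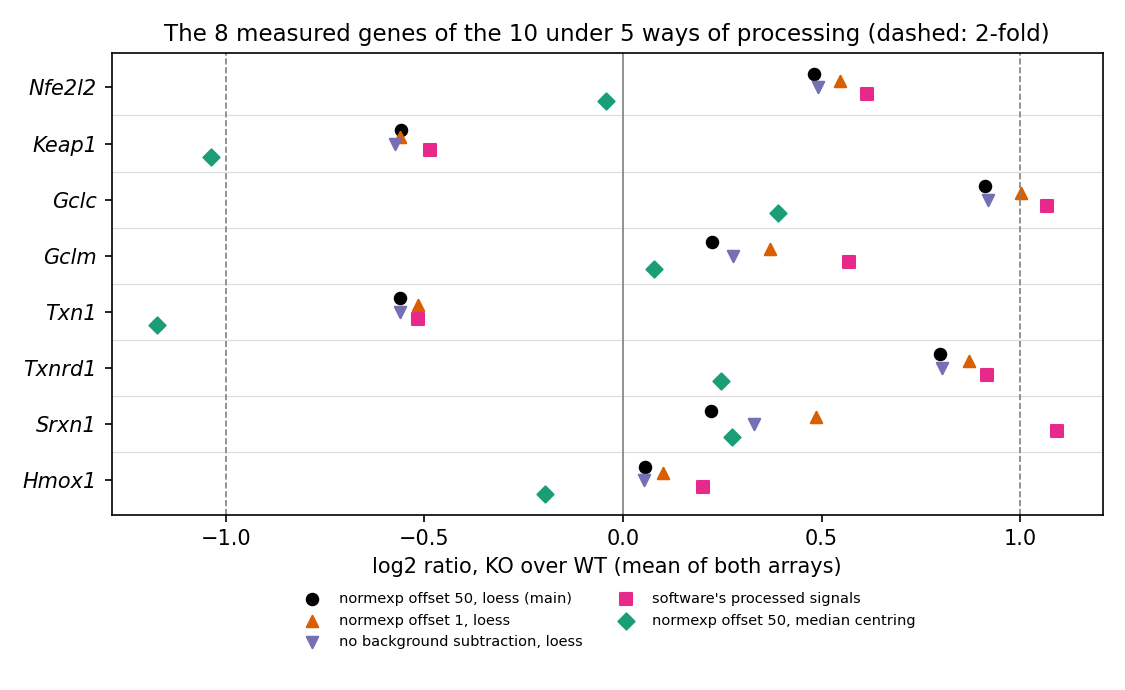
Mean log2 ratio of KO over WT (x axis) of the 8 measured genes (y axis) under 5 ways of background correction and normalisation, each point a mean of 2 arrays, with dashed lines at 2-fold. Gclc, Gclm, Txnrd1 and Srxn1 stay above 0 and Keap1 and Txn1 below it under all 5, and median centring shifts all but Srxn1 to the left. Points past a dashed line are calls only where each array passes it, as for Gclc and Srxn1 with the processed signals.

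The other genes of the pathway, 114 in 6 lists, 94 of them measured, were read by the same rule. Of these, 3 were called higher in KO (Mt1, Mt2 and Ftl1) and 10 lower, beside 2.46% and 6.88% of all measured genes, and their median log2 ratio was -0.17. Among Nrf2 regulators 0 of 13 measured genes, Nfe2l2 and Keap1 included, were called in either direction, against 1 called higher with an offset of 1 and 2 with the processed signals. Their median was 0.33, but -0.27 with median centring, where it stood 0.10 above that of all genes. Bach1, the repressor at the same elements, came nearest: its signals were 402.6 and 343.9 in KO, against 172.2 and 180.6 in WT, and its log2 ratios of 1.23 and 0.93 passed 2-fold on 1 array. With the processed signals they were 1.77 and 1.44, and Bach1 was called higher under 4 of 10 alternatives. Mafg, a small Maf partner, had a ratio of 0.57 ± 0.01, and Cul3, the ligase scaffold, had 0.01 ± 0.10. Of the 13 measured regulator genes, 7 lay above 0 on both arrays and 4 below 0 on both, beside 38.63% and 44.34% of all measured genes.

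In the list of glutathione synthesis, uptake and recycling, 4 of 14 measured genes were called lower in KO and none higher, with a median of -0.56. Of all measured genes, 6.88% were called lower and 2.46% higher. Among the 4 called in this list, Chac1 and Ggt7 passed the filter through WT alone. With genes required to be above background in both RNAs on both arrays, 2 of 11 were called lower and the median was -0.36. Of the 14, 3 lay above 0 on both arrays, Gclc and Gclm among them, and 11 below 0 on both, beside 38.63% and 44.34% of all measured genes. Chac1, which degrades glutathione and is known as an Atf4 target, had signals of 81.9 and 94.2 in KO, against 474.2 and 502.6 in WT. It was 5.56-fold lower in KO (log2 -2.47 ± 0.08), with 1 of its 2 KO spots above background. With KO this dim the size turned on the background: the log2 ratio was -3.82 with an offset of 1 and -5.19 with the processed signals. Its upstream window also holds 1 TGATGCAA. Slc3a2, the heavy chain that Slc7a11 needs, gave 1641 and 1736 in KO, against 4450 and 4215 in WT, or 2.57-fold lower (-1.36 ± 0.11), with -1.95 under median centring. Chac2, also a glutathione-degrading enzyme, had a log2 ratio of -1.12 ± 0.05, or -1.85 with the processed signals. Ggt7, of the gamma-glutamyl transferase family, had -1.02 ± 0.01 with 1 of its 2 KO spots above background, or -1.67 with an offset of 1 and -2.27 with the processed signals. Neither was called with median centring. Glutathione synthetase (Gss) had -0.41 ± 0.36 and glutathione reductase (Gsr) had -0.36 ± 0.13, neither called. In this list the ligase gene Gclc and the called genes had opposite signs.

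Glutathione-using enzymes gave 2 calls among 21 measured genes, both lower in KO, where 6.88% of all measured genes were, with a list median of -0.28. Gstk1, a mitochondrial and peroxisomal transferase, gave 280.0 and 275.3 in KO, against 693.2 and 658.1 in WT, or 2.43-fold lower (-1.28 ± 0.04). Gstt1, a theta-class transferase, gave 78.0 and 89.2 in KO, with 1 of the 2 spots above background, against 193.9 and 208.7 in WT, or 2.41-fold lower (-1.27 ± 0.06). Its log2 ratio was -2.31 with an offset of 1 and -3.73 with the processed signals. None of the 21 was called higher, where 2.46% of all measured genes were. Of the 21, 7 lay above 0 on both arrays and 13 below 0 on both, beside 38.63% and 44.34% of all measured genes. The highest was Gsto1, at 0.68 ± 0.21. With both RNAs required above background, 1 of 17 was called lower and the median was -0.23. Probes of such families were not checked for binding to related transcripts, nor were those of Txn1, Ftl1 and the metallothioneins.

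In the thioredoxin and peroxiredoxin list all 22 genes were measured, with a median of -0.12. In KO 3 were called lower and none higher, beside 6.88% and 2.46% of all measured genes. Sesn2, a stress-induced leucine sensor that also aids peroxiredoxin repair, gave 202.5 and 181.3 in KO, against 775.1 and 751.0 in WT, or 3.98-fold lower (-1.99 ± 0.08). Prdx4, the peroxiredoxin of the endoplasmic reticulum, gave 555.5 and 502.5 in KO, against 1754 and 1823 in WT, or 3.38-fold lower (-1.76 ± 0.14). Nxn, nucleoredoxin, gave 1017 and 888.4 in KO, against 2775 and 2547 in WT, or 2.80-fold lower (-1.48 ± 0.05). On the other side of 0, and not called, were Prdx1, a cytosolic peroxiredoxin and known Nrf2 target, at 0.57 ± 0.05 and Txnip, which binds and inhibits thioredoxin, at 0.75 ± 0.06. A dimmer Prdx1 probe gave 0.07 ± 0.08. Txnrd1 had the highest ratio of the 22, and the mitochondrial reductase gene Txnrd2 had -0.67 ± 0.08.

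In the list of other Nrf2 targets, which includes Hmox1, the median of 24 measured genes was -0.04 (-0.06 without Hmox1). In KO 3 were called higher and none lower, beside 2.46% and 6.88% of all measured genes. Mt1, a metallothionein that binds zinc and copper, gave 51560 and 51991 in KO, against 5515 and 7646 in WT, or 7.97-fold higher (2.995 ± 0.32), with 2.34 under median centring. Mt2, its neighbour on chromosome 8, gave 12518 and 14282 in KO, against 2277 and 2552 in WT, or 5.55-fold higher (2.47 ± 0.02), with 1.85 under median centring. Ftl1, the ferritin light chain, gave 53944 and 66565 in KO, against 16588 and 19177 in WT, or 3.36-fold higher (1.75 ± 0.07), with 1.08 and no call under median centring. The ferritin heavy chain gene Fth1 had 0.04 ± 0.09. The pentose phosphate genes of the list were not called. G6pdx had -0.06 ± 0.20, Pgd had -0.03 ± 0.26, Taldo1 had 0.10 ± 0.12 and Tkt had -1.11 ± 0.16, past 2-fold on 1 array. 

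The 8 measured genes of superoxide dismutase, catalase and NADPH oxidase had a median of -0.13, and 1 was called lower in KO, where 6.88% of all measured genes were. It was Ncf1, the p47phox subunit of the phagocyte oxidase, with signals of 118.8 and 136.5 in KO, against 329.1 and 314.1 in WT, or 2.53-fold lower (-1.34 ± 0.19). The log2 ratio was -2.12 with the processed signals. Sod1 had -0.74 ± 0.32 and Cat, the catalase gene, had 0.54 ± 0.13 at its brighter probe and 0.13 ± 0.12 at a dimmer one, neither called.

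**Figure D4:**
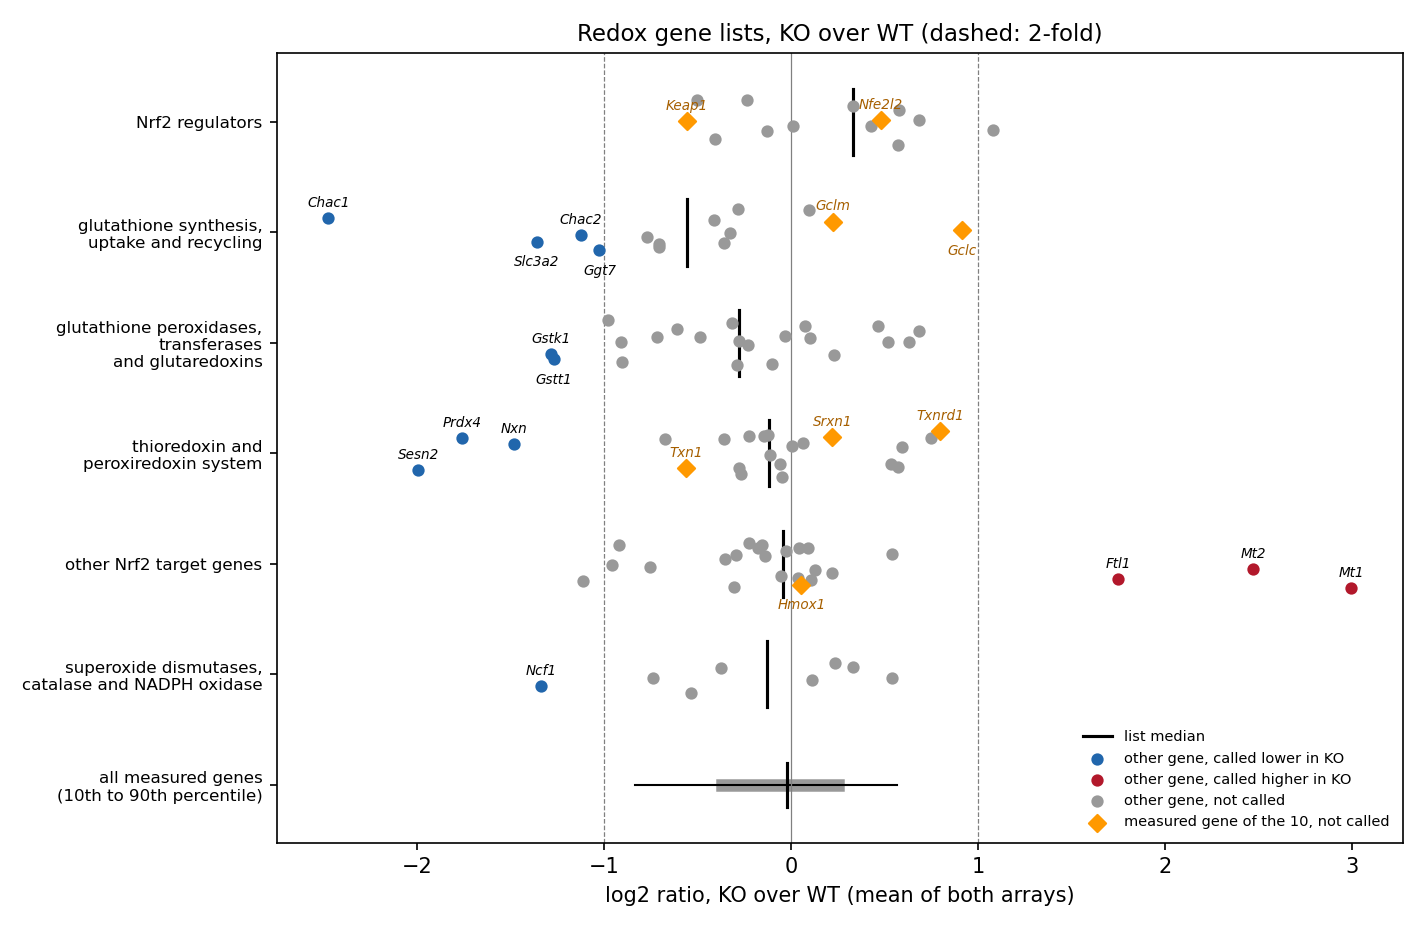
Log2 ratio of KO over WT, mean of 2 arrays (x axis), for the measured genes of 6 redox lists (y axis), with the list medians, the genes called at least 2-fold on both arrays, and the measured genes of the 10 as diamonds. The bottom line gives all measured genes with their 10th to 90th percentile (thin) and middle quartiles (thick). Called genes lie mostly on the lower side apart from Mt1, Mt2 and Ftl1, and no diamond passes the dashed 2-fold lines. Bach1 and Tkt pass 2-fold in the mean but on 1 array each, and so are grey.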

How the data were processed

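The 2 scanner files hold Agilent Feature Extraction intensities, mean and local background per spot and channel, made by the authors with software version 10.7.3.1 per the file headers (10.5.1.1 per the submitters' processing notes). Per the labels' protocols, hybridisation took 17 h at 65 °C with 400 ng of cRNA. The deposited value table holds the software's log10 ratio of red over green, equal to the scanner files' column for all 44397 spots on each array (tolerance 1e-09).

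Background was corrected with normexp (offset 50), each array was normalised by loess with the 1377 control spots at weight 0, outlier spots (206 and 214) were dropped, and spots of a probe were averaged (limma 3.58.1, R 4.3.3). No spot was saturated (0 spots). The labels' dyes gave the sign of each array, and log2 ratios are KO over WT. Signals are per channel after Aquantile normalisation between arrays. The brightest probe stands for a gene. In the RefSeq table of GRCm38.p6, 26049 of the 39429 probes matched by accession, 3200 by symbol and 930 by synonym, and 9250 kept the file's name. All 11 probes of the 10 genes were named by accession, and each was spotted once.

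A call needs a change of 2-fold or more to the same side on each array. No p-value was computed, because each genotype has 1 RNA extract. The number of arrays limits the precision. The 10 genes, all their probes, called genes of the lists, Lamtor1 and the marker lists were to be named by rule. Uncalled list genes (Bach1, Mafg, Cul3, Gss, Gsr, Prdx1, Txnip, Txnrd2, Fth1, G6pdx, Pgd, Taldo1, Tkt, Sod1, Cat) were chosen for their roles after their values were seen. Gsto1 was named as the highest of its list. The highest and lowest genes of each list, which the plan also allowed for, were not all named. The genes and lists were chosen with earlier results of these data known. Upstream windows came from RefSeq, and motifs were searched with Python 3.11.15. Background correction, loess and the rule of size were tested on simulated arrays, with changes well beyond 2-fold in probes well above background. That test did not cover changes near 2-fold, changes in dim probes or the motif search. Alternatives were another offset, no background subtraction, the software's processed signals, the deposited ratios, median centring, other filters, the median over probes, each array alone and a 1.5-fold rule.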

Additional observations from a re-analysis of the deposited data

How the results depend on the processing

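Of the 10 genes, none was called lower under any alternative run. The number called higher, 0 in the report, was 2 (Gclc and Srxn1) with the deposited log ratios or the processed signals, and 2 with the 1.5-fold rule (Gclc and Txnrd1), and 0 under the other alternatives. Among the 114 other pathway genes, the number called higher, 3 in the report, was 5 with an offset of 1, 6 with the processed signals, 6 with the deposited ratios and 6 with the 1.5-fold rule, and the number called lower, 10 in the report, was 22 with the 1.5-fold rule, which is looser by construction, 15 with an offset of 1, 14 with the processed signals, 15 with KO in Cy5 alone and 7 with both RNAs required above background. Lamtor1 was at -2.17 with an offset of 1, -2.02 without background subtraction, -2.18 with the processed signals or the deposited ratios and -2.39 with median centring. Among the 8 genes with an upstream window, the number with an element core, 3 in the report, was 1 when the core had to be followed by A. It was 6 with the looser core, chosen after seeing the data. The cause of the changes in calls was not tested. Each array alone gave 0 calls among the 10 genes. No paired analysis was possible because each genotype has 1 RNA extract, hybridised on 2 arrays. Dim probes such as those of Slc7a11, Nqo1, Srxn1 and the second Hmox1 probe are limited by signal over background, and the spread between mice was not measured.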
